A study of Mus musculus with 33 samples.

Results

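Laminins and integrins are the principal proteins of the basement membrane and of the cell surface receptors that hold an epithelium to it. They were described in GFP-positive mouse mammary epithelium as 38 genes: 11 laminin chains, 18 integrin alpha subunits and 9 integrin beta subunits. A protein-coding gene was a member when its symbol was that of a laminin chain (Lama, Lamb or Lamc and a digit) or an integrin subunit (Itga or Itgb and a digit or letters) and it had at least 10 reads summed over all libraries. The names gave 42 genes, of which 4 (Itgb1bp1, Itgb1bp2, Itgb3bp and Itgbl1) encode other proteins and were left out. All 38 others passed, out of 36527 genes tested and 55487 gene rows in all.

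RNAseq libraries were made from 33 samples, 19 from tumors and 14 from glands of mice without tumors. PTHrP WT mice were Pthrp wt/wt; Cre+ and PTHrP KO mice were Pthrp flox/flox; Cre+, so MMTV-Cre was present in both genotypes, and the mTmG reporter turned recombined cells GFP-positive. Tumor mice also carried the MMTV-PyMT transgene, which tumor-free mice lacked. WT tumors were taken at weeks 6, 8 and 10 (3 each) with 1 tumor at week 12, and KO tumors at weeks 8, 10 and 12 (3 each). WT glands were taken at weeks 6, 8, 10 and 12 (2 each) and KO glands at weeks 8, 10 and 12 (2 each). The cells were dissociated, grown in culture and then sorted, so the values are of cells that had spent some time away from the tissue and its basement membrane. MMTV drives PyMT and Cre mainly in mammary epithelium, and cells in which Cre did not act are not in the GFP-positive fraction. With 1 tumor, the WT group of week 12 entered no test between groups, but it is among the 19 tumors in ranges, overlaps and correlations.

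Laminins are heterotrimers of 1 alpha, 1 beta and 1 gamma chain, secreted by epithelial cells and assembled into the basement membrane. Laminin-332, which holds the Lama3 and Lamb3 chains, anchors the basal cells of stratified and glandular epithelia, while laminin-511 (Lama5, Lamb1, Lamc1) is widespread under adult epithelia and laminin-111 (Lama1, Lamb1, Lamc1) is known from embryonic and glandular basement membranes. Integrins are heterodimers of an alpha and a beta subunit: the alpha subunit largely sets the ligand, and the beta subunit links to the cytoskeleton. Integrin alpha6beta4 holds laminin-332 at hemidesmosomes. In the mammary gland the myoepithelial (basal) layer lies on the basement membrane and makes much of it.

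The libraries held 28419983 to 130981596 counted reads. Pthlh, the targeted gene, was measured over its whole length at 1.46 to 6.67 CPM (reads of a gene scaled to the library total) in WT tumors, 1.35 to 2.29 CPM in KO tumors, 2.93 to 7.73 CPM in WT glands and 2.79 to 8.52 CPM in KO glands. These ranges overlapped within each tissue, and reads from outside the deleted part are counted with the rest, so they do not check the genotype. Reads on rRNA genes made up at most 0.447% of WT libraries but reached 12% in a KO tumor and 18.8% in a KO gland. Summed over 10 luminal markers, the libraries had 3897 to 10141 CPM, and of these markers 5 fell and 2 rose in WT and 4 fell and 2 rose in KO between gland and tumor. Epcam was at 525 to 1048 CPM in all 33 libraries, and the leukocyte marker Ptprc had a median of at most 0.979 CPM in any class. Summed over 10 markers, basal or myoepithelial transcripts were at 1006 to 5420 CPM in tumors and at 5311 to 20766 CPM in glands, and all 10 markers fell in both genotypes. Of 10 fibroblast markers, 6 fell in WT and 1 in KO, and of 10 endothelial markers 7 fell in WT and 2 in KO. The fibroblast sum was at 12.5 to 148 CPM in tumors and 15.6 to 775 CPM in glands, and the endothelial sum at 3.57 to 22.6 and 6.16 to 41.3 CPM, and their part in the results was not tested. Fewer basal cells and less RNA per basal cell cannot be told apart in bulk RNA.

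The promoters of 3 members that moved the same way in both genotypes are shown as reference points for the results that follow: Lama5 and Itga5, which fell in all 6 comparisons of a week, and Itgb8, which rose in 5 of the 6. The RefSeq table (GRCm38.p6) held 27 promoter windows, of 250 bases before and 50 after a start, for 24 of the 38 members. The windows are chr2:180225810-180226109 (minus strand) for Lama5, chr15:103366742-103367041 (minus strand) for Itga5 and chr12:119238227-119238526 (minus strand) for Itgb8, each written 5′ to 3′ on the strand of the gene. Capitals mark the GC box letters GGGCGG, or their reverse complement.
Lama5: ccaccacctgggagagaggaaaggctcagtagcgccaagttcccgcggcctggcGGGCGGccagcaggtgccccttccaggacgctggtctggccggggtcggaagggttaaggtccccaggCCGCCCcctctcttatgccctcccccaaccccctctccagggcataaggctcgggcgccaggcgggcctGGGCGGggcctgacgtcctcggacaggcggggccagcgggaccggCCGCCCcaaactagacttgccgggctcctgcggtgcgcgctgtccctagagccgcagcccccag
Itga5: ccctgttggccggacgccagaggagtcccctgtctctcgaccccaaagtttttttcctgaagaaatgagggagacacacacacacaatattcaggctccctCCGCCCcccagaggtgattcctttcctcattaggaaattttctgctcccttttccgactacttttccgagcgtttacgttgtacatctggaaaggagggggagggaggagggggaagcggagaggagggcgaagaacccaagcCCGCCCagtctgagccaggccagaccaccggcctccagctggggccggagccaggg
Itgb8: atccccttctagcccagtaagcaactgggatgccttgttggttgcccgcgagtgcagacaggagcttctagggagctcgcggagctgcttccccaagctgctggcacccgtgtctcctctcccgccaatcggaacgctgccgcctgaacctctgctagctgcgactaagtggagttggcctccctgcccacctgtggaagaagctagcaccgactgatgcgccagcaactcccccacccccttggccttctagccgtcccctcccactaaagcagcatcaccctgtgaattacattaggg
The Lama5 window held 4 GC boxes and the Itga5 window 2, and the Itgb8 window had none of the 4 motifs searched. The Itgb8 window lies wholly inside the GENCODE gene (chr12:119158022-119238802), so it does not cover the start of that gene model. Both strands were searched for the GC box, the AP-1 letters TGANTCA, the STAT letters TTCNNNGAA and the TATA letters TATAAA, and no matches of different motifs overlapped in these windows. GC boxes were in 12 of the 27 member windows and in 35.7% of all 32851 windows. AP-1 letters were in 3 member windows against 7.81% of all windows, STAT letters in 2 against 8.3%, and TATA letters in 0 against 13.6%.

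Most laminin chains fell from gland to tumor, and integrin subunits fell, rose or were not called. Averaged over weeks 6, 8 and 10 in WT mice, 18 of the 38 members fell and 2 rose. Averaged over weeks 8, 10 and 12 in KO mice, 13 fell and 4 rose. The background among all 36527 genes was 15.7% called in WT (9.53% lower and 6.21% higher) and 10.6% in KO (5.44% lower and 5.16% higher), where called means a fold change over 1.5 and an edgeR adjusted p under 0.1. Among protein-coding genes of at least 1 CPM on average, which are closer to the members in level, 21.5% were called in WT and 17.7% in KO, against 16 and 15 of the 27 members at that level. The median log2 fold change of the 38 members was -0.67 in WT and -0.43 in KO, while that of all genes was 0.03 and 0.09. The calls met in 14 members, 70% of those called in WT and 82.4% of those called in KO, while over all genes 48.6% of WT calls were also called in KO and 72.2% of KO calls in WT, and these 2 comparisons share no library. Among them were Lama1, Lama3, Lama5, Lamb3, Lamc1, Itga1, Itga2, Itga2b, Itga5, Itga9 and Itgb7, which fell in both, and Itga8 and Itgb8, which rose in both.

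**Figure D1:**
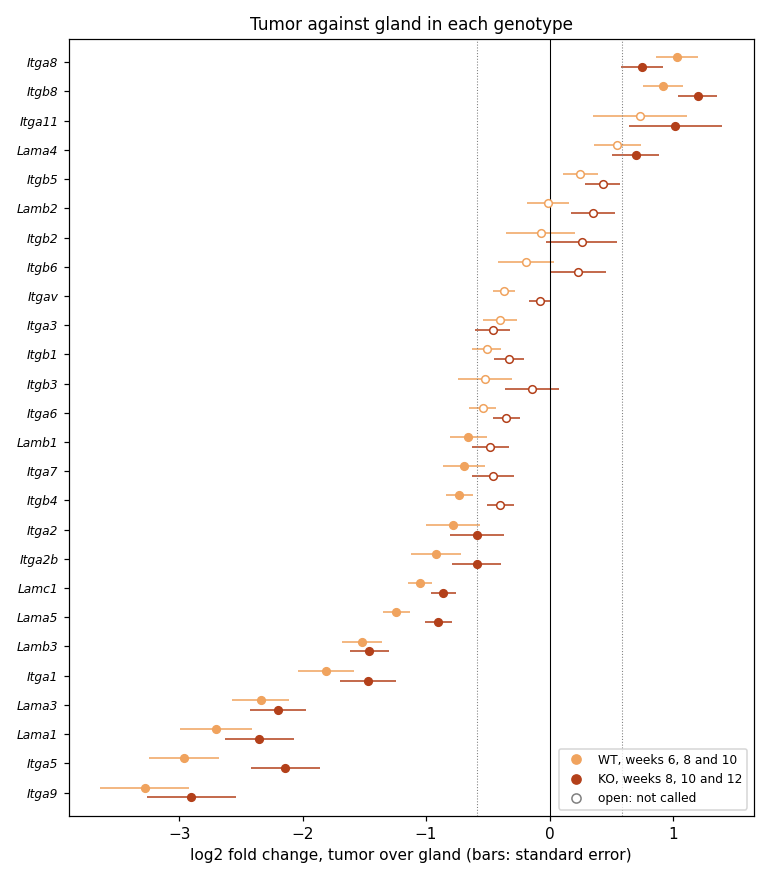
Log2 fold change of tumor over gland (x axis) for members of at least 1 CPM on average, in WT (light) and KO (dark) mice, with standard errors as bars, filled points for members called and open points for members not called. Itga9, Itga5, Lama1 and Lama3 lie furthest to the left in both genotypes and Itgb8 and Itga8 lie to the right, joined in KO by Itga11 at 1.02 and Lama4 at 0.70, and the dotted lines stand at a fold change of 1.5.

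The alpha and beta chains of laminin-332 fell together. Lama3, the alpha chain, was at 313, 327 and 396 CPM in the WT tumors of week 6, against 1361 and 1231 CPM in the glands of that week. At week 8 the WT tumors had 195, 190 and 132 CPM and the glands 1662 and 1083 CPM, and at week 10 the tumors had 205, 312 and 120 CPM and the glands 1191 and 637 CPM. KO tumors had 423, 318 and 221 CPM at week 8, 289, 175 and 182 CPM at week 10 and at most 199 CPM at week 12, and the KO glands ran from 522 to 1431 CPM. No tumor reached the level of any gland: the highest of 19 tumors was at 423 CPM and the lowest of 14 glands at 522 CPM. The log2 fold change of Lama3 was -2.34 ± 0.23 (SE) in WT (edgeR adjusted p = 3.62e-08) and -2.20 ± 0.23 in KO (edgeR adjusted p = 2.26e-07).

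Lamb3, the beta chain, which joins Lama3 in the trimer, was at 222 to 459 CPM in WT tumors (median 416), 248 to 487 CPM in KO tumors (median 391), 727 to 1558 CPM in WT glands (median 1100) and 548 to 1352 CPM in KO glands (median 1149). Tumors and glands again did not overlap. Its log2 fold change was -1.52 ± 0.16 in WT and -1.46 ± 0.16 in KO, with edgeR adjusted p of 8.92e-08 and 4.14e-07.

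Per kb of exon, Lama3 and Lamb3 differed in level. The median in WT glands was 166 CPM per kb for Lamb3 and 106 for Lama3, and in WT tumors they were at 62.9 and 18.6. The ratio of Lama3 to Lama5, the alpha chain of laminin-511, ran per kb from 0.747 to 2.11 in WT glands and from 0.144 to 0.992 in WT tumors. In KO mice it was 0.662 to 2.2 in glands and 0.43 to 1.28 in tumors, and in both genotypes the tumor and gland ranges overlapped. Exon lengths were those of merged GENCODE exons, so a gene with several transcript forms appears lower per kb than its main form.

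The chains of laminin-511 had smaller log2 fold changes. Lama5, its alpha chain (chr2:180176373-180225859), was at 289 to 456 CPM in WT tumors and 268 to 479 CPM in KO tumors, against 656 to 1045 CPM in WT glands and 625 to 835 CPM in KO glands. Each tumor lay under each gland. In WT mice of week 6 the tumors had 334, 431 and 456 CPM beside glands of 684 and 918 CPM, and in KO mice of week 12 the tumors had 478, 268 and 380 CPM beside glands of 756 and 652 CPM. The log2 fold change was -1.24 ± 0.11 in WT and -0.90 ± 0.11 in KO (edgeR adjusted p = 9.72e-09 and 2.41e-06). Lamc1, the gamma chain that most laminins share, was at 134 to 200 CPM in all tumors and at 225 to 422 CPM in all glands, again without overlap, and fell in all 6 weeks. Its log2 fold change was -1.05 ± 0.10 in WT and -0.86 ± 0.10 in KO. Lamb1, the beta chain of laminin-511 and laminin-111, fell in WT by 0.66 ± 0.15 on the log2 scale and was at -0.48 ± 0.15 in KO, where the size was under the fold threshold. Without replicate 1 of the WT glands of week 10 Lamb1 lost its call in WT too, at -0.58.

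Of the other chains, Lama1, the alpha chain of laminin-111, fell most: 4.21 to 20.3 CPM in 19 tumors and 26.4 to 116 CPM in 14 glands. Its log2 fold change was -2.70 ± 0.29 in WT and -2.35 ± 0.28 in KO (edgeR adjusted p = 1.06e-07 and 1.49e-06). Lamb2, the beta chain of laminins of the kidney and the synapse, was at 102 CPM in WT tumors and glands alike (mean of 3 weeks), with a log2 fold change of -0.01 (approximate 95% interval -0.35 to 0.33) in WT and 0.35 (0 to 0.69) in KO. Lama4, an alpha chain of vessels and other mesenchymal tissues, rose in KO by 0.70 ± 0.19 (edgeR adjusted p = 0.0117), and was at 0.55 ± 0.19 in WT, with no call. The Lama4 call in KO was lost with the rRNA share as a covariate and without replicate 1 of the KO tumors of week 8, and with that covariate Lama4 was called in WT, at 0.73. Lamc3 had 10 to 112 reads per library and fell in KO by 1.40 ± 0.32 (edgeR adjusted p = 0.00255), while in WT it was at -0.35 ± 0.31. Lama2, the alpha chain of muscle laminin, had 0 to 100 reads and no call.

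**Figure D2:**
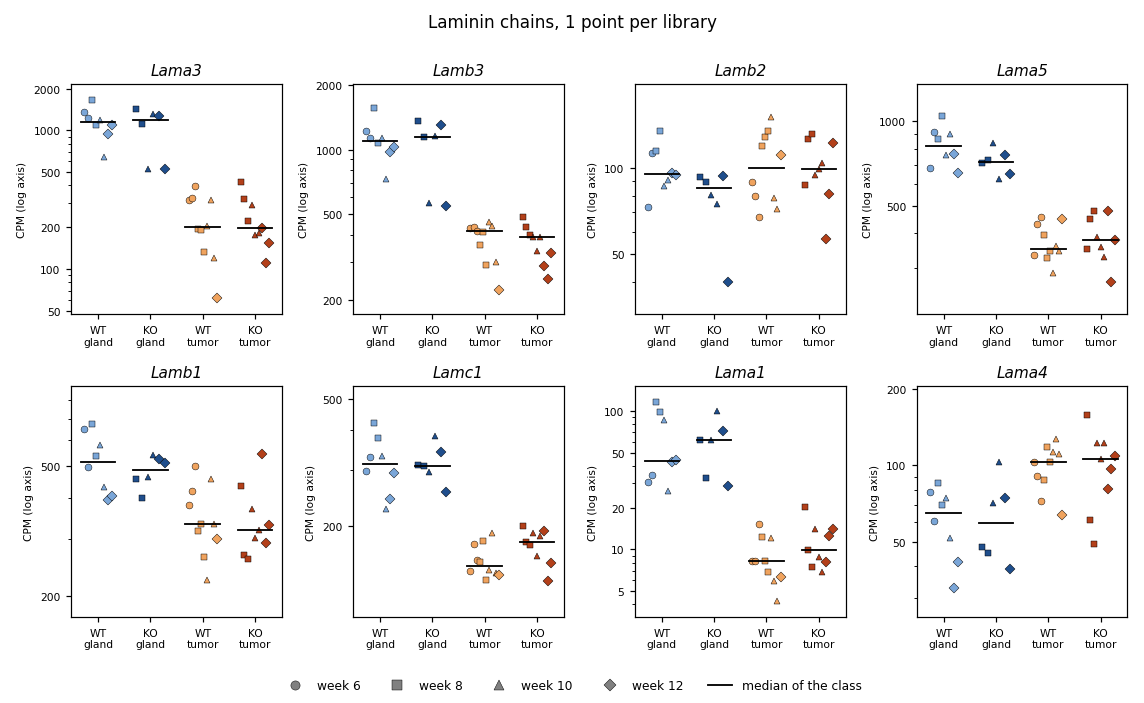
CPM on a log axis of 8 laminin chains in each of the 33 libraries, with the median of each class as a bar and the week as the symbol. For Lama3, Lamb3, Lama5, Lamc1 and Lama1 every tumor lies below every gland, for Lamb1 and Lamb2 the classes overlap, and for Lama4 the tumor medians lie above those of glands.

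The alpha3, alpha6 and beta1 subunits of the laminin receptors were not called in either mean comparison. Itgb1, the partner of most alpha subunits, was the most abundant member per kb in every class, with 617 CPM per kb in WT glands and 445 in WT tumors (medians). Its log2 fold change was -0.51 ± 0.12 in WT and -0.33 ± 0.12 in KO, each with an edgeR adjusted p under the threshold (0.00384 and 0.0749) and a size under it, so it was not called. Itga3, which with beta1 binds laminin-332 and laminin-511, was at -0.40 ± 0.14 in WT and -0.46 ± 0.14 in KO. Itga6, the alpha subunit of the hemidesmosomal receptor, was at -0.54 ± 0.11 and -0.35 ± 0.11. Week 8 alone called Itga6 and Itgb1 in WT.

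Itgb4, the beta subunit found only with alpha6, fell in WT: 325, 328 and 325 CPM in the tumors of week 6 against 637 and 574 CPM in the glands, 304, 348 and 290 CPM against 655 and 551 CPM at week 8, and 287, 448 and 273 CPM against 475 and 377 CPM at week 10. At weeks 6 and 8 the groups stood apart, and at week 10 one tumor lay between the glands. Its log2 fold change was -0.73 ± 0.11 in WT (edgeR adjusted p = 1.6e-05) and -0.40 ± 0.11 in KO (edgeR adjusted p = 0.0119, under the fold threshold). Per kb, Itga6 and Itgb4 were near each other, with a median ratio of 1.21 in WT glands and 1.45 in WT tumors. Itga7, a laminin receptor subunit of muscle, fell in WT by 0.69 ± 0.17 and was at -0.46 ± 0.17 in KO, and the WT call was lost without replicate 2 of the glands of week 8.

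Among integrin subunits for other ligands, Itga9 had the lowest log2 fold change of all members called in both genotypes. It pairs with beta1 and binds tenascin and VCAM-1. It was at 0.66 to 5.78 CPM in tumors and 4.53 to 30.2 CPM in glands, and its log2 fold change was -3.28 ± 0.36 in WT and -2.90 ± 0.36 in KO (edgeR adjusted p = 2.24e-07 and 2.3e-06). Itga5, the alpha subunit of the fibronectin receptor (chr15:103344286-103366763), was at 14.4, 13.1 and 28.1 CPM in WT tumors of week 6 and 139 and 87.3 CPM in the glands. At week 8 it was at 7.44 to 14.2 CPM in the 3 WT tumors, 39.8, 18.3 and 14.2 CPM in KO tumors, 138 and 88 CPM in WT glands and 80.6 and 70.2 CPM in KO glands. The highest tumor was at 39.8 CPM and the lowest gland at 40 CPM. Its log2 fold change was -2.96 ± 0.28 in WT and -2.14 ± 0.28 in KO (edgeR adjusted p = 2.6e-08 and 4.14e-06).

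Of the collagen receptors, Itga1 fell by 1.81 ± 0.23 in WT and by 1.47 ± 0.23 in KO on the log2 scale, from 3.31 to 22.1 CPM in glands to 2 to 7.07 CPM in tumors. Itga2, its neighbor on chromosome 13 at a distance of 21 kb, was far more abundant, at 213 to 872 CPM in glands. It fell by 0.78 ± 0.22 in WT and by 0.59 ± 0.22 in KO, where its call stood at an edgeR adjusted p of 0.0794 and held in 13 of 25 alternatives. Itga11, a collagen receptor of fibroblasts, rose in KO by 1.02 ± 0.38 (edgeR adjusted p = 0.084), a call that held in 11 of 25 alternatives, and was at 0.73 ± 0.38 in WT. Itga10 was at 0.509 to 1.63 CPM with no call. Itga2b, the platelet subunit, was at 1.15 to 3.23 CPM in tumors and 2.58 to 5.12 CPM in glands and fell in both genotypes, by 0.92 ± 0.20 in WT and by 0.59 ± 0.20 in KO, where the call held in 16 of 25 alternatives. Of 6 platelet markers, 1 fell in WT and 0 in KO. Pf4 had a median of at most 0.269 CPM in any class and reached 10.1 CPM in a WT gland, and the part of platelets in the Itga2b values was not tested.

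Itgb8 and Itga8 rose in both genotypes. Itgb8, an alphav partner that binds latent TGF-beta (chr12:119158022-119238802), was at 143, 163 and 133 CPM in WT tumors of week 8 and 62.8 and 70.7 CPM in the glands. In KO mice of week 8 the tumors had 129, 124 and 114 CPM and the glands 56.6 and 55 CPM. WT tumors of week 6 stood lower, at 96.1, 80.3 and 67.3 CPM beside glands of 52.5 and 69.2 CPM, and this was the only week that did not call it. The log2 fold change was 0.92 ± 0.16 in WT and 1.2 ± 0.16 in KO (edgeR adjusted p = 8.55e-05 and 5.41e-06). Itga8, which with beta1 binds nephronectin and other RGD ligands, was at 51.8 to 112 CPM in tumors and 25.5 to 67.8 CPM in glands, with a log2 fold change of 1.03 ± 0.17 in WT and 0.75 ± 0.17 in KO (edgeR adjusted p = 8.39e-05 and 0.00301). Of its exon bases 5.05% lie opposite the antisense gene E030013I19Rik, and whether reads were counted by strand is not given in the sources used here. Itgav, the common partner of Itgb3, Itgb5, Itgb6 and Itgb8, was at -0.37 ± 0.09 in WT and -0.08 ± 0.09 in KO and was not called, nor were Itgb3, Itgb5 and Itgb6 in either mean.

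**Figure D3:**
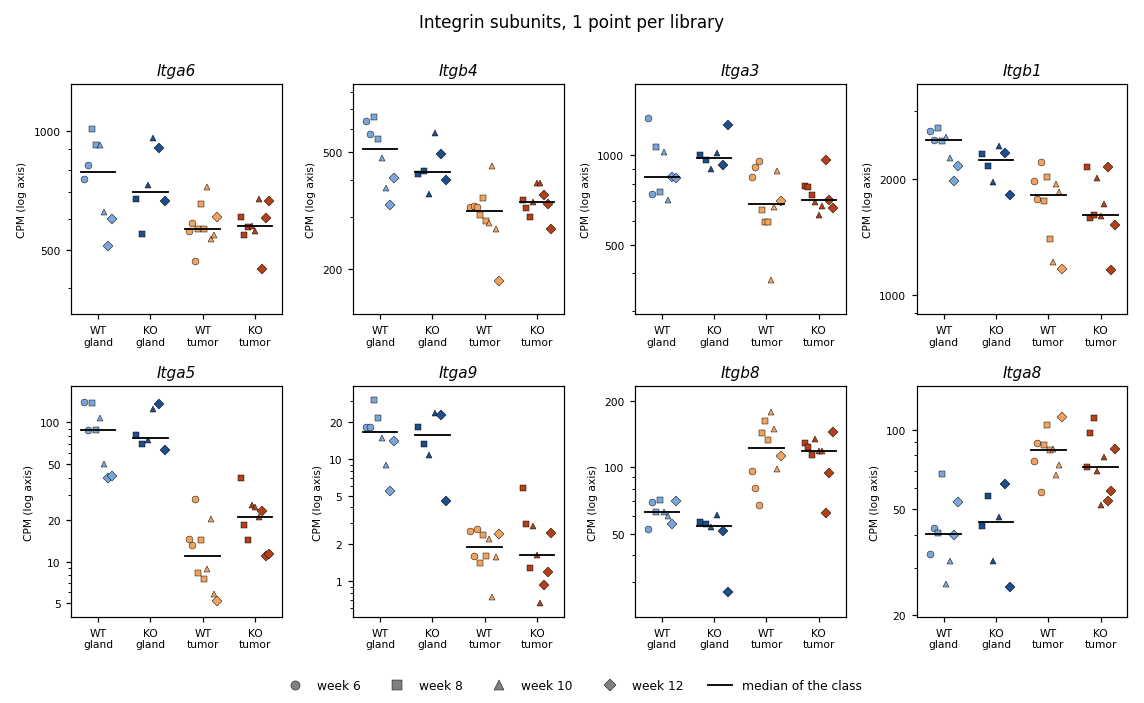
CPM on a log axis of 8 integrin subunits in each of the 33 libraries, with class medians as bars and weeks as symbols. Tumors and glands overlap for Itga6, Itgb4, Itga3 and Itgb1, separate for Itga5, nearly separate for Itga9, and overlap with higher tumor medians for Itgb8 and Itga8.

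Leukocyte integrins were near the limit of the libraries. Itgb2, the beta subunit of the leukocyte integrins, was at 0.775 to 6 CPM, with a log2 fold change of -0.07 (-0.61 to 0.48) in WT and 0.26 ± 0.29 in KO. Itgal, its alpha partner on lymphocytes, had 0 to 93 reads per library and Itgam, its partner on myeloid cells, 0 to 114 reads. Itgam fell in WT by 2.39 ± 0.68 (edgeR adjusted p = 0.0135) and was at 0.21 ± 0.75 in KO. Itgax was at -1.59 ± 0.41 in WT, a call, and at 0.65 ± 0.47 in KO, and Itga4 fell by 1.70 ± 0.58 in WT. In KO, Itga4 was at -1.35 ± 0.62 (edgeR adjusted p = 0.182), and DESeq2 called it there (-1.39, adjusted p = 0.0854). Itgb7, the beta subunit of gut-homing lymphocytes, had 5 to 115 reads and fell by 2.05 ± 0.40 in WT and by 1.45 ± 0.42 in KO. In these libraries 6 of 10 leukocyte markers fell in WT and 1 of 10 in KO, and their sum was at 8.98 to 19.2 CPM in WT tumors and 7.22 to 51.1 CPM in WT glands. In KO mice the sum was at 6.57 to 16.8 CPM in tumors and 7.26 to 47.2 CPM in glands, with the highest value in replicate 2 of week 10. The part of leukocytes in the results for Itgam, Itgax, Itga4 and Itgb7 was not tested. In WT the Itgam call was lost without replicate 2 of the glands of week 6 or of week 8, the Itgax call without replicate 1 of the glands of week 8, and the Itga4 call without replicate 2 of the glands of week 6, 8 or 10 and with the replicate number as a block. In KO the Itgb7 call was lost without replicate 2 of the glands of week 10 and without the 3 libraries over 10% rRNA. Exons of Itgam share 68.7% of their bases with the gene model Gm49368, so its reads are uncertain. Itgae, the partner of Itgb7 on epithelial lymphocytes, had 5 to 133 reads, with log2 fold changes of 0.10 ± 0.34 in WT and 0.22 ± 0.34 in KO. Itgad and Itgb2l were under 1 CPM in every library, at 0 to 12 and 0 to 6 reads. For Itgb2l all libraries of 12 of the 14 groups had 3 reads or fewer.

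Within single weeks, in WT mice 12 of 38 members were called at week 6 (5.86% of all genes), 16 at week 8 (9.19%) and 13 at week 10 (6.13%). In KO mice 8 were called at week 8 (2.49%), 12 at week 10 (5.66%) and 10 at week 12 (6.11%). Fitting only the groups compared left 0 calls at week 12 in KO, and 0 of 22035 genes in all, and without the 3 libraries over 10% rRNA 2 members were called at week 8 in KO (0.473% of genes). A set of 7 members fell in each of the 6 comparisons, as did 0.783% of all genes: Lama1, Lama3, Lama5, Lamb3, Lamc1, Itga5 and Itga9. The highest single-week count of rising members was 3, at week 10 in WT, where Itga8, Itga11 and Itgb8 rose. With 2 glands a week the counts leaned on single libraries: 6 without replicate 2 of the WT glands of week 6 (1.35% of genes), 7 without replicate 1 of the WT glands of week 10 (3.32%), 0 without replicate 1 of the KO glands of week 8 (0.123%) and 4 without replicate 2 of the KO glands of week 10 (1.89%). At week 8 in KO mice, leaving out tumor replicate 2 (1.27% of genes) or gland replicate 2 (0.92%) left 3 calls each and leaving out tumor replicate 3 (411 of 36527 genes) left 5. Over all weeks and genotypes, 6 members had every tumor below every gland (0.608% of all genes) and 0 had every tumor above (0.534% of all genes). The 6 were Lama1, Lama3, Lama5, Lamb3, Lamc1 and Itga5.

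Basal markers moved with several of these members. Over the 14 glands, the Spearman correlation with the basal marker sum was 0.92 for Lamb3, 0.91 for Itga9, 0.89 for Lama3, 0.88 for Lamc1 and 0.86 for Itga5. Over the 19 tumors it was 0.66, 0.45, 0.65, 0.38 and 0.60 in that order. For Lama1 it was 0.74 in glands and 0.58 in tumors, and for Lama4, which rose in KO, 0.75 and 0.56. For Lama5, which fell in every comparison of tumors with glands, it was -0.12 in glands and -0.24 in tumors. These correlations describe libraries of both genotypes and several weeks, and the part of the basal cells in the tumor comparisons was not tested.

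**Figure D4:**
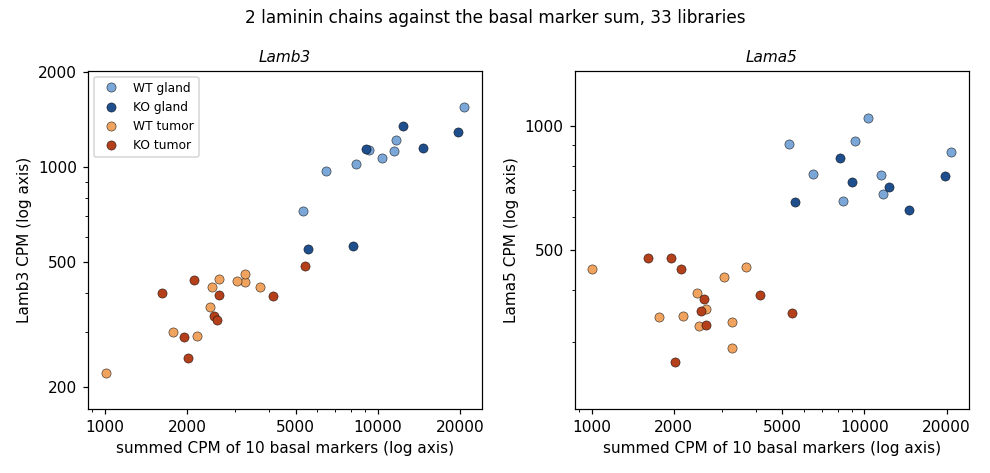
CPM of Lamb3 and of Lama5 (y axes, log) against the summed CPM of 10 basal or myoepithelial markers (x axes, log) in the 33 libraries. Lamb3 is higher where the marker sum is higher, within glands and within tumors, while Lama5 forms 2 separate clouds, tumors up to 479 CPM and glands from 625 CPM.

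Between genotypes no member was called. The difference of the tumor effect (tumor over gland at weeks 8 and 10) between WT and KO was called for 0 of 38 members, with a background of 0.00548% of genes, 4 members at an unadjusted p under 0.05 in edgeR and 0 called by DESeq2. Over all genes 2038 of 36527 had an unadjusted p under 0.05, and DESeq2 called 0.203%. Of these 4 members, Itga5 and Lama5 had over 1 CPM on average, and the difference for Itga5 was -1.28 ± 0.49 (edgeR adjusted p = 0.829). For Lama3 it was -0.51 (approximate 95% interval -1.29 to 0.27), for Lama5 -0.49 (-0.87 to -0.10) and for Lamb3 -0.20 (-0.75 to 0.34). A member called in one genotype only, such as Itgb4, is therefore not shown to differ between them.

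WT and KO tumors were compared at weeks 8 and 10 (0 of 38 called, 0.512% of genes) and stage by stage, WT weeks 6, 8 and 10 against KO weeks 8, 10 and 12, which are hyperplasia, adenoma and carcinoma in each genotype (0 of 38, 1.11% of genes). Itga5 came nearest at weeks 8 and 10: the 6 WT tumors ran from 5.84 to 20.1 CPM with a mean of 10.8, and the 6 KO tumors from 14.2 to 39.8 CPM with a mean of 23.9. The highest WT tumor lay above 2 of the 6 KO tumors. The log2 fold change of WT over KO was -1.16 ± 0.31 (edgeR adjusted p = 0.119, DESeq2 adjusted p = 0.0141). Stage matched, it was -0.68 ± 0.25 (edgeR adjusted p = 0.234). At unadjusted p under 0.05 edgeR had 2 and 5 members in the 2 comparisons, and DESeq2 called 1 in each, Itga5. Over all genes 3996 and 4832 of 36527 passed that unadjusted p, and DESeq2 called 1.82% and 1.79%. The stage-matched difference was 0.08 (-0.32 to 0.48) for Lama3 and 0.12 (-0.16 to 0.40) for Lamb3. WT and KO glands of weeks 8, 10 and 12 gave 0 of 38 (0.906% of genes), with 2 members at an unadjusted p under 0.05 and 1 called by DESeq2. Over all genes these were 4514 of 36527 and 2.03%. The member was Itgb6, an alphav partner of epithelia, at 192 CPM in WT and 107 CPM in KO glands (log2 fold change 0.84 ± 0.25, edgeR adjusted p = 0.13, DESeq2 adjusted p = 0.0408). The KO glands also held more rRNA, a median of 6.2% against 0.0116% in WT glands, and its part in the Itgb6 value was not tested.

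Between weeks no member was called either. WT tumors of week 10 against week 6 gave 0 of 38 (0.011% of genes), with 5 members at an unadjusted p under 0.05, of which DESeq2 called 2, while over all genes 3122 of 36527 passed that p and DESeq2 called 0.693%. The 2 members were Itga11, at 9.1, 8.81 and 6.93 CPM at week 6 and 62.9, 32.6 and 12 CPM at week 10 (log2 fold change 2.11 ± 0.59, edgeR adjusted p = 0.424), and Itgb8 at 0.81 ± 0.24 (edgeR adjusted p = 0.438). In the same tumors, in that order, the fibroblast marker sum was at 53.8, 26.9 and 14 CPM and at 148, 59.5 and 37.3 CPM. Of the 10 fibroblast markers 0 were called between these weeks, and their part in the Itga11 values was not tested. KO tumors of week 12 against week 8 gave 0 of 38 (0% of genes), with 2 members at an unadjusted p under 0.05 and 0 called by DESeq2, against 2878 of all genes and 0.342%. The 2 members were Lama3 at -1.05 ± 0.36 and Lamb3 at -0.62 ± 0.25, with edgeR adjusted p of 0.626 and 0.628. WT glands of week 12 against week 6 gave 0 of 38 (0.35% of genes), with 6 members at an unadjusted p under 0.05 and 1 called by DESeq2, against 2994 of all genes and 1.87%. The member was Itgb4, at 637 and 574 CPM at week 6 and 329 and 406 CPM at week 12 (log2 fold change -0.72 ± 0.21, edgeR adjusted p = 0.206, DESeq2 adjusted p = 0.0417).

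Genes that work with laminins and integrins were followed in 65 genes of 5 groups. In WT mice 29 fell and 3 rose between gland and tumor, and in KO mice 24 fell and 5 rose, beside 15.7% of all genes called in WT and 10.6% in KO. Among protein-coding genes of at least 1 CPM on average, 21.5% were called in WT and 17.7% in KO. Of 16 other basement membrane components, 11 fell and 2 rose in WT and 9 fell and 2 rose in KO. Col4a1 and Col4a2, the chains of the common collagen IV, fell by 3.39 ± 0.28 and 3.15 ± 0.23 in WT, while Col4a5 and Col4a6, which form another collagen IV, rose by 0.76 ± 0.20 and 0.63 ± 0.24. Of 26 genes of talin, kindlin and the adhesome, which link integrins to actin, 9 fell in WT and 7 fell and 1 rose in KO. Among them Tgfb1i1 fell by 3.43 ± 0.35 in WT and Vcl, the gene of vinculin, by 0.62 ± 0.13. Of 7 hemidesmosome and tetraspanin partners, 3 fell in both genotypes and 1 rose in KO. Of 6 other laminin receptors, 2 fell in WT and 1 in KO. Of 10 other integrin ligands, 4 fell and 1 rose in both genotypes: Postn (periostin) fell by 3.22 ± 0.47 in WT, and Spp1 (osteopontin), an RGD ligand, rose by 4.31 ± 0.47, from a mean of 157 CPM to 3178 CPM.

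The genes whose pattern over the 33 libraries was most like that of Itgb4 (Spearman rho of log2 CPM, 13323 genes) were Vcl at 0.913, Nectin1 at 0.907, Rbfox2 at 0.906, Ssh1 at 0.905, Palld at 0.895, Itga5 at 0.891, Sh3pxd2a at 0.886, Adam12 at 0.884, Lamc1 at 0.88 and Cmah at 0.878. Itga6, the partner of Itgb4, had 0.553 and rank 1447. Itga8 was at the other end of the members at -0.681.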

How the data were processed

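Per the labels and the methods of the study, the authors removed rRNA, sequenced stranded paired-end libraries, aligned reads with HISAT to GRCm38 (Gencode annotation), dropped duplicates (Picard 1.128) and used HTSeq to count reads in genes. The deposited counts table holds 55598 rows, of which 111 are no gene (0.0778% of reads). The authors' deposited normalized signal table (35323 rows) served only for 1 alternative, as log2(signal + 1). The columns of the labels gave all 33 libraries a group. Counts were tested with edgeR 4.0.16 (R 4.3.3): quasi-likelihood test, TMM scaling, all libraries in 1 fit with 1 coefficient per genotype, tissue and week, and the 36527 genes with at least 10 reads in all. Genes were called at an adjusted p (Benjamini-Hochberg, over all genes) under 0.1 when their fold change also passed 1.5. Intervals are approximate 95% intervals from the standard error. Per the methods of the study, the samples of a group came from separate animals.

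The members and gene lists were chosen with earlier results of these data known. Named with values were members called in a mean comparison or between genotypes or weeks, the laminin-111, laminin-332 and laminin-511 chains with Lamb2, the laminin receptor and main leukocyte subunits, the 4 highest and 4 lowest called partners in WT, and the 10 genes most like Itgb4. One member is counted but not reported by name here. Other members were named after their values were seen. DESeq2 1.42.0 and limma 3.58.1 gave alternatives. On simulated data for the WT mean comparison (35121 genes), 82 of 100 genes changed by 1 on the log2 scale and 100 of 100 changed by 2 were called, with 13 of 34921 unchanged genes. The changed genes were drawn only from genes above a minimum mean read count. Counts were simulated with the trended dispersion alone, and unchanged genes had the same mean in all groups. These rates therefore do not hold for members with few reads, and the measured data can vary more.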

Additional observations from a re-analysis of the deposited data

Results flagged for a closer look

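The single WT tumor of week 12 entered no test between groups, and of the 27 members of at least 1 CPM on average 3 were above all 14 glands in it: Itga11 at 34.3 CPM, Itga8 at 112 CPM and Itgb8 at 112 CPM. The highest gland had 20.3 CPM of Itga11, 67.8 CPM of Itga8 and 70.7 CPM of Itgb8. Of protein-coding genes of that level, 19.5% were above all glands in this tumor, a larger share than that of the members. The same tumor had the lowest CPM of all 33 libraries for 9 of the 27 members of at least 1 CPM on average (among them Lama3, Lamb3, Itga7, Itga2, Itga5, Itgav, Itgb4 and Itgb3), against 5.99% of 12267 protein-coding genes of that level. Its basal marker sum, 1006 CPM, was also the lowest of all 33 libraries, ahead of 1612 CPM in a KO tumor of week 8, and the part of basal cells in these values was not tested. Without a replicate these values have no error.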

How the results depend on the processing

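No result changed direction, and of the values for the 29 named members in the mean comparisons and between genotypes 4314 kept their side of the threshold, 28 passed it newly and 48 lost it. The 25 alternatives kept 15 of 20 calls in the WT mean comparison and 12 of 17 in KO in every case. Without the 3 libraries over 10% rRNA, an alternative chosen after seeing the data, 2 members were called at week 8 in KO (0.473% of genes), and with only the groups compared 0 were called at week 12 in KO. The cause was not tested. Between WT and KO tumors of weeks 8 and 10, DESeq2, no filter, the filter at 1 CPM and limma (also chosen after seeing the data) called 1 each (1.82%, 1.16%, 2.66% and 0.78% of genes), as they did between glands (2.03%, 1.46%, 3.06% and 2.73%). DESeq2 and no filter called 1 each between stage-matched tumors (1.79% and 1.28%). Between WT tumors of weeks 10 and 6 DESeq2 and no filter called 2 each (0.693% and 0.889%), between KO tumors of weeks 12 and 8 no filter called 1 (0.356%), and between WT glands of weeks 12 and 6 DESeq2 called 1 (1.87%) and no filter 2 (558 of 49472 genes).

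Leaving out 1 library at a time, with the trended dispersions of the full fit, gave 6 to 11 calls in WT mice of week 6. Week 8 of WT gave 12 to 15 and week 10 gave 7 to 15. For KO mice, week 8 gave 0 to 9, week 10 gave 4 to 13, and week 12 gave 10 to 12. The WT mean gave 17 to 21 and the KO mean 14 to 17. The difference of tumor effects gave 0 to 0, WT against KO tumors 0 to 1 at weeks 8 and 10 and 0 to 1 stage matched, glands 0 to 1, WT tumors between weeks 0 to 2, KO tumors 0 to 0 and WT glands 0 to 0. The share of all genes called moved too. At the lowest counts in WT it was 1.35% at week 6 and 3.32% at week 10, against 5.86% and 6.13% in the full fit. In KO it was 0.123% at week 8 and 1.89% at week 10, against 2.49% and 5.66%. The other ranges are given without that share and are no result about the members.

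With the replicate block, 20 members were called in the WT mean comparison (13.8% of genes) and 15 in KO (9.76%), and no count moved by over 1.5 times. Without the block these shares of genes were 15.7% and 10.6%. In WT, Itga4 lost its call under the block and Lama4 gained one (log2 fold change 0.63, edgeR adjusted p = 0.0266), and in KO Itga2 and Itga11 lost theirs. The numbers are shared names: 18 of 32 libraries correlated best with their own number, and the mean correlation of deviations was 0.0358 for the same number and -0.0198 for other numbers. Chi-square per degree of freedom was at least 37.39 in the 25 pairs of libraries within groups, so none of these pairs was a duplicate. Members under 1 CPM, 11 of the 38, rest on few reads.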
